A study of Mus musculus with 5 samples.

Results

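Pou5f1, Sox2 and Nanog are the core transcription factors of mouse pluripotent cells, and their levels were followed here across single cells of 3 mouse cell types. They were chosen by name, as the rows Pou5f1, Sox2 and Nanog of the count tables, and a gene with no row in a plate was taken as 0 reads there. They are 3 of 15597 genes with reads in the 5 plates. Embryonic stem (ES) cells of the R1 line, grown as spheres per their label, were measured on 3 plates, Neuro2A, a neuroblastoma line, on 1 plate, and mouse embryonic fibroblasts (MEF) on 1 plate. No treatment or genotype is given for any group. Neuro2A and MEF cells grew in serum-containing DMEM with 2-mercaptoethanol, and ES R1 cells by a published sphere protocol. Cells were dissociated enzymatically and sorted by FACS, 1 to a well, into plates of 96 wells. Whether each ES plate was a culture of its own is not stated, and with 1 plate each, Neuro2A and MEF have no replicate.

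Pou5f1 encodes Oct4, a POU-domain factor, and Sox2 encodes an HMG-box factor. In ES cells both proteins bind side by side on composite DNA sites, among them sites at these genes themselves. Nanog encodes a homeodomain factor that stabilises the undifferentiated state and is known to vary from cell to cell in mouse ES cultures. Sox2 is also a factor of neural progenitors, whereas Pou5f1 and Nanog are largely restricted to pluripotent and germ cells.

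The promoters are shown because the 3 genes were read in the same plates, and because 1 of them matches a motif of the other 2 factors. Each sequence runs from 250 bases before to 50 bases after the first listed RefSeq transcription start, on build GRCm38.p6 and the + strand. The build of the deposited counts is not given in the sources used here, so no counts were placed on these coordinates. Capitals mark matches on either strand to 6 motifs. The POU motif was ATGCAAA. The SOX motif was CATTGT. The composite motif was the SOX motif, 1 free base and the POU motif. The GC box was GGGCGG, the nuclear receptor motif, bound by hormone receptors and their relatives, was AGGTCA and the TATA box, a core promoter element, was TATAAA. The motif letters were chosen with the Nanog site known.
Pou5f1, chr17:35505782-35506081: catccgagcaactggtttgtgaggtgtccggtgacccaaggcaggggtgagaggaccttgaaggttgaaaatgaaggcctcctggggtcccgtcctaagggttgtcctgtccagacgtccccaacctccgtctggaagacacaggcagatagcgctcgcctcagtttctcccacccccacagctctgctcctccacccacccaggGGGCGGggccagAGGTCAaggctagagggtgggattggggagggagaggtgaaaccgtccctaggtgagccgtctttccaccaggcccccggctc
Sox2, chr3:34649745-34650044: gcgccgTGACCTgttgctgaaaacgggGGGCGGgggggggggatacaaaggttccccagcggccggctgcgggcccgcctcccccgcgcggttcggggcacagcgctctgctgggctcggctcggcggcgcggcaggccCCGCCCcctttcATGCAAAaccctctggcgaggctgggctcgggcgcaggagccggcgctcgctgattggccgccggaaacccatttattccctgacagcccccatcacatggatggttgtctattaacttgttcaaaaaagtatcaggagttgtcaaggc
Nanog, chr6:122707239-122707538: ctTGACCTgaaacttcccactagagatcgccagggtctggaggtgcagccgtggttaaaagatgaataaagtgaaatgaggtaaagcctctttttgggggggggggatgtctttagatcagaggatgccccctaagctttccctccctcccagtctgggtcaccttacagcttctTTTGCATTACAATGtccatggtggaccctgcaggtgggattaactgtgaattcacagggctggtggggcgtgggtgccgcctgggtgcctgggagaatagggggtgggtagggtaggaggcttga
The Nanog promoter matches the composite motif on the minus strand, beginning 75 bases before the start, with its POU and SOX parts overlapping the single motifs. Of 27025 promoters of this length, 1 per gene, 0.00370% hold it, which is the Nanog promoter alone. As the letters were chosen with this site known, that share is not a background rate. Sox2 has a POU motif beginning 99 bases before its start, which 4.59% of promoters have, and 2 GC boxes, which 35.9% have at least once. Pou5f1 has 1 GC box and 1 receptor motif, which is found in 16.0% of promoters and also in the other two. None of the 3 windows holds the TATA box, found in 14.2% of promoters. The composite motif overlaps both single motifs by construction, and the SOX motif alone is in 12.8% of promoters. A GC share of 62.7% in the Pou5f1 window, 66.3% in Sox2 and 54.3% in Nanog goes with 11, 27 and 4 CpG dinucleotides.

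With a minimum of 1000 gene reads per well, 93, 66 and 94 wells of ES replicates 1, 2 and 3 entered, with 86 of Neuro2A and 92 of MEF. Their gene reads came to 11432543, 262517 and 2134248 in the ES plates, against 3155092 for Neuro2A and 2930884 for MEF. ES replicate 2 stood apart, with 82.4% of its reads on repeats against 23.02% to 40.0% in the other plates, and 2520.5 gene reads in its median kept well against 12749 to 101130 elsewhere. All 5 plates used the same 96 well barcodes. Genes specific to MEF had in ES replicate 3 a median of 10.8% of their number of reads in MEF, and genes specific to Neuro2A had in MEF a median of 9.45% of their number in Neuro2A. Taking away these shares removed 0.217 of the 974 Sox2 reads of ES replicate 3 and no read of Pou5f1 or Nanog. The 8 ES markers outside the members, such as Zfp42 and Tdgf1, summed to 6405, 4099 and 8448 CPM in the ES plates, against 0.317 CPM for Neuro2A and 1.02 CPM for MEF, where CPM is reads per 1000000 gene reads of the kept wells.

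Reads of all 3 factors were found in every ES plate and nearly nowhere else. Pou5f1 had 102, 26.7 and 185 CPM in ES replicates 1, 2 and 3 (1164, 7 and 394 reads), and no read in either Neuro2A or MEF. The 7 reads of ES replicate 2, the shallowest plate, make its value the least certain. Sox2 had 1214, 1009 and 456 CPM in ES replicates 1, 2 and 3 (13882, 265 and 974 reads), 0 reads in Neuro2A and 2 reads, 0.682 CPM, in MEF. Nanog had 851, 152 and 442 CPM in the same ES plates (9733, 40 and 943 reads), and again no read in either other type. For each factor every ES plate lay above both other plates, which was also true of 19.7% of the 12271 genes tested. The order of the cell types was ES, then MEF with 2 reads and Neuro2A with 0 for Sox2, and those neighbours differ by no more than counting error. For Pou5f1 and Nanog, MEF and Neuro2A cannot be ordered. A count of 0 allows up to 3 reads, which is 0.951 CPM in Neuro2A and 1.02 CPM in MEF. In ES replicates 1, 2 and 3 this limit is 0.262, 11.4 and 1.41 CPM. These limits cover counting error only, since without molecular identifiers a PCR copy cannot be told from a molecule.

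**Figure D1:**
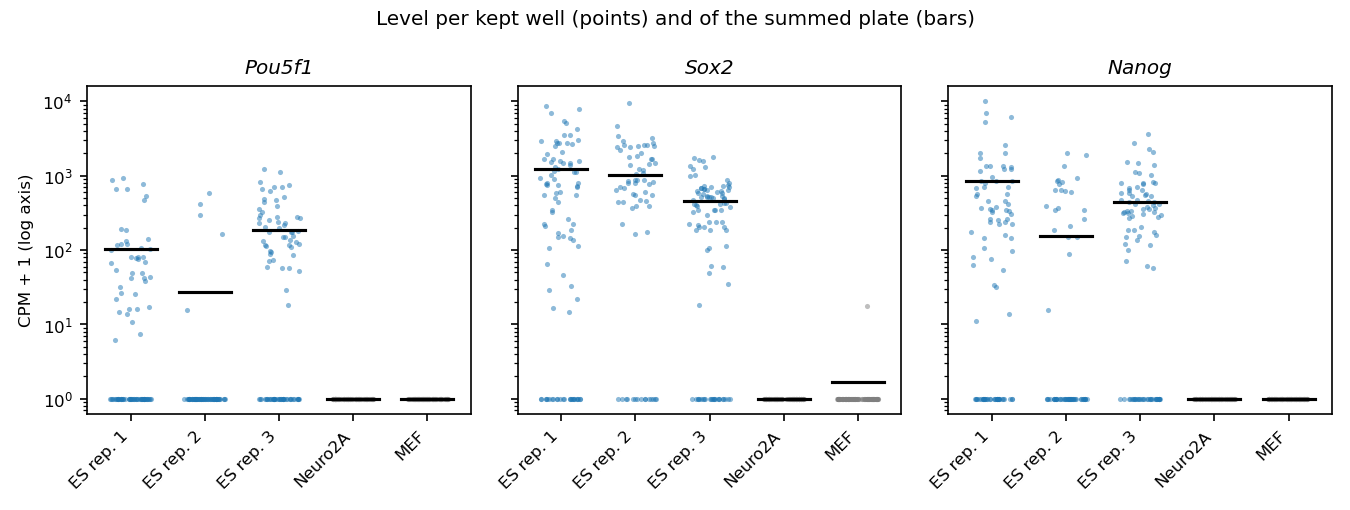
Level of Pou5f1, Sox2 and Nanog in each kept well (points; blue for ES, grey for Neuro2A and MEF) and in the summed plate (black bars), as CPM + 1 on a log axis, by plate. All 3 genes have wells above 500 CPM in each ES plate beside many wells at 0, while Neuro2A has no read and MEF 1 well with 2 Sox2 reads.

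The 3 ES plates differed from one another in the level of the factors. Pou5f1 averaged 104 ± 79.0 CPM, Sox2 893 ± 392 CPM and Nanog 482 ± 351 CPM (SD, n = 3 plates). The highest ES plate exceeded the lowest by 6.92 times for Pou5f1, 5.59 times for Nanog and 2.66 times for Sox2. Among 2290 genes with a mean of at least 100 CPM over the ES plates and reads in each, the median of this ratio was 2.18, and 94.7%, 92.1% and 64.8% of them had a smaller ratio than Pou5f1, Nanog and Sox2. The plate that was lowest was replicate 2 for Pou5f1 and Nanog and replicate 3 for Sox2, so the factors did not share an order of plates. Cell culture, depth and library preparation cannot be told apart between these plates.

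Against the other cell types, mean Pou5f1 in ES was at least 110-fold higher than the 3-read limit per library of Neuro2A and at least 102-fold higher than that of MEF. Mean Nanog in ES was at least 507-fold higher than in Neuro2A and at least 471-fold higher than in MEF on the same limits. Mean Sox2 in ES was at least 940-fold higher than in Neuro2A, and its ratio to the 2 MEF reads was 1309 (95% counting interval 362 to 10810). Without ES replicate 3 the bounds for Pou5f1 were 67.6-fold over Neuro2A and 62.8-fold over MEF. Without ES replicate 1 those for Nanog were 312-fold and 290-fold. The whole table was fitted with edgeR's quasi-likelihood test on the 5 plate sums, with Benjamini-Hochberg adjustment over 12271 genes, and all 3 factors passed its filter on low counts through the ES plates. Against MEF the adjusted p was 0.493 for Pou5f1, 0.435 for Sox2 and 0.472 for Nanog (unadjusted 0.00934, 0.000481 and 0.00186). Against Neuro2A the adjusted p was 0.299, 0.177 and 0.194 (unadjusted 0.00774, 0.000208 and 0.00155). Against the mean of Neuro2A and MEF it was 0.150, 0.0572 and 0.0786 (unadjusted 0.00173, 4.76e-05 and 0.000288). None of these passed 0.05, and edgeR called 0% of all genes higher in each of the 3 comparisons. At an unadjusted p under 0.05, 4.21% of genes were higher in ES against MEF, 8.38% against Neuro2A and 9.78% against both, and all 3 factors were among them each time.

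Only the spread between the ES plates (2 residual degrees of freedom) informed the fit, which takes the lone Neuro2A and MEF plates to vary as much. DESeq2, which called 3.39%, 8.83% and 7.83% of genes higher in the 3 comparisons, called each factor in each of them, with adjusted p-values of 0.00695 or less. With edgeR each factor was also called in each comparison without ES replicate 1 (0.00614 or less), but not without replicate 2 or 3. Limma-voom called none, with an adjusted p of 0.255 for Sox2 against MEF (unadjusted 0.0657), 0.307 for Nanog and 0.323 for Pou5f1. Against both types, Sox2 was called in 9 of 13 alternatives of processing and fitting. The factors were higher in ES in all 117 refits over the 3 comparisons. With 0 to 2 reads of each factor in the other plates, no alternative could have turned that direction, so it adds no support.

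Within the ES plates each factor was read in only some of the wells, as were most genes. The median gene with reads was read in 15.1%, 6.06% and 14.9% of kept wells of ES replicates 1, 2 and 3. Of genes with reads in these plates, 97.1%, 99.4% and 96.8% had a smaller share than Sox2. For Nanog this was 94.7%, 94.7% and 95.1%, and for Pou5f1 88.3%, 58.2% and 92.5%. Sox2 had a read in 68 of 93, 51 of 66 and 70 of 94 kept wells of ES replicates 1, 2 and 3, or 73.1%, 77.3% and 74.5% (exact 95% binomial intervals 62.9 to 81.8%, 65.3 to 86.7% and 64.4 to 82.9%). The intervals of the 3 plates overlapped although the plates differed widely in depth. Nanog had a read in 58, 23 and 62 of the same wells, or 62.4%, 34.8% and 66.0% (51.7 to 72.2%, 23.5 to 47.6% and 55.5 to 75.4%). Pou5f1 had a read in 43, 5 and 54 wells, or 46.2%, 7.58% and 57.4% (35.8 to 56.9%, 2.51 to 16.8% and 46.8 to 67.6%). For both genes the interval of ES replicate 2 lay below those of the other plates. In Neuro2A 0 of 86 wells had a read of any factor, which allows a share of up to 3.49% by the limit of 3 wells and 4.20% by the exact 95% interval, at a median of 26278 gene reads per well. In MEF 0 of 92 wells had Pou5f1 or Nanog, which allows up to 3.26% and 3.93% by the same rules, and 1 well (1.09%) had Sox2, at a median of 12749 reads.

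The single MEF well with Sox2 held 2 reads of it among 117772 gene reads and none of the 8 other ES markers. At the same barcode Sox2 had 62 reads in ES replicate 1 and 14 in ES replicate 3. Whether those 2 reads came from the MEF cell or from another plate was not tested.

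The share of wells in which a factor was seen moved with depth. When each well was brought to 1000 gene reads, by the expected result of drawing reads without replacement, Sox2 was seen in 40.7%, 55.3% and 29.3% of wells of ES replicates 1, 2 and 3. Nanog was then seen in 26.2%, 17.0% and 26.2%, and Pou5f1 in 6.18%, 2.04% and 13.3%, with 93, 66 and 94 wells. At equal depth ES replicate 2 had the highest share for Sox2, although the level of Sox2 was highest in ES replicate 1. For Nanog and Pou5f1 ES replicate 2 had the lowest share, as for their levels. No kept well was too shallow for this. In ES replicate 3, as deposited, Pou5f1 was read in 72.3% of the 47 wells above the median depth and in 42.6% of the 47 at or below it. Sox2 was read in 89.4% of the deeper and 59.6% of the shallower wells, and Nanog in 80.9% and 51.1%. The deeper wells had the higher share for all 3 factors in the other ES plates as well.

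**Figure D2:**
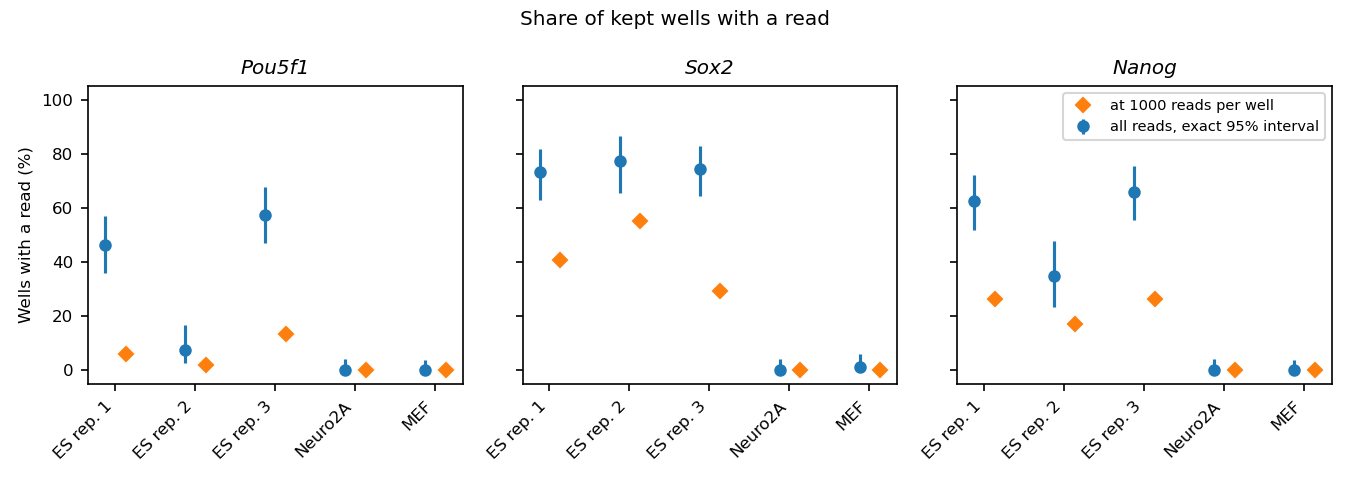
Share of kept wells with at least 1 read of Pou5f1, Sox2 or Nanog, in percent, by plate, with all reads (circles, exact 95% binomial intervals) and at 1000 reads per well (diamonds). Sox2 lies at 73.1% to 77.3% in the 3 ES plates with all reads, while Pou5f1 spans 7.58% to 57.4%, and Neuro2A and MEF are at or near 0.

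The share of wells with a factor also moved with the last base of the well barcode. In ES replicate 3, the 24 wells whose barcode ended in G had Sox2 in 100% (exact 95% interval 85.8 to 100%), Nanog in 95.8% and Pou5f1 in 95.8%. The 70 wells with another last base had Sox2 in 65.7% (53.4 to 76.7%), Nanog in 55.7% and Pou5f1 in 44.3%. All 3 factors were read in 22 of the 24 wells behind a G barcode of that plate, against 19 of 70 behind the other barcodes. In ES replicate 1 the shares were 87.5%, 91.7% and 75.0% for Sox2, Nanog and Pou5f1 behind G, against 68.1%, 52.2% and 36.2% behind the other bases. In ES replicate 2 they were 95.2%, 57.1% and 9.52%, against 68.9%, 24.4% and 6.67%. Each factor was therefore read in a larger share of G wells in each ES plate. This was not particular to them: of genes read in at least 30% of wells, 99.8%, 96.1% and 99.7% had a larger share behind G in ES replicates 1, 2 and 3, by a median of 42.9, 23.8 and 45.2 percentage points. In ES replicates 1, 2 and 3, wells with a G barcode held reads on a median of 3910, 1502 and 4895.5 genes, against 1131, 723 and 1762 for the others. In Neuro2A and MEF, 0 of 24 wells with a G barcode had a read of any factor. The part of barcode sequence in these shares as against the cells themselves was not tested.

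**Figure D3:**
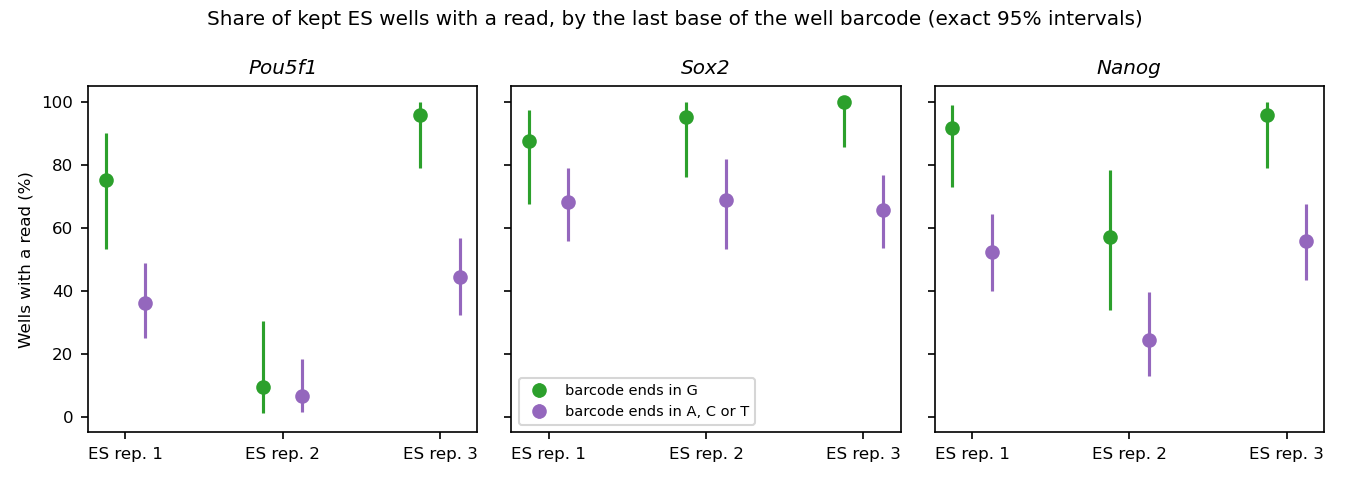
Share of kept ES wells with a read of Pou5f1, Sox2 or Nanog, in percent, for wells whose barcode ends in G (green) and in another base (purple), with exact 95% binomial intervals, by ES plate. The green points lie above the purple ones for each gene in each plate, up to 100% for Sox2 in ES replicate 3.

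Among wells that had a read, levels spread over orders of magnitude. The lowest value of each range below is 1 read, so the low ends follow well depth. In ES replicate 1 kept wells held 2358 to 594280 gene reads. In ES replicate 1 the wells with Nanog ran from 10.3 to 10124 CPM with a median of 396, those with Sox2 from 13.9 to 8692 with a median of 858, and those with Pou5f1 from 5.16 to 940 with a median of 74.0. A single well thus held Nanog far above the middle of its plate. In ES replicate 3, Nanog ran from 57.1 to 3652 CPM with a median of 418, Sox2 from 17.2 to 1770 with a median of 502, and Pou5f1 from 17.2 to 1218 with a median of 188. The coefficient of variation over all kept wells was 2.33, 1.97 and 1.49 for Nanog in ES replicates 1, 2 and 3, 1.54, 1.25 and 1.03 for Sox2, and 2.42, 4.29 and 1.51 for Pou5f1. Sox2 had the smallest of the 3 in each plate, and it also had the most wells with a read. Reads were held by few wells: 50% of the Nanog reads lay in 5, 5 and 10 wells of the ES plates, 50% of the Sox2 reads in 8, 7 and 15, and 50% of the Pou5f1 reads in 4, 2 and 9. Over genes of at least 100 CPM in the plate the median was 3, 3 and 9 wells. Where a factor reached 100 CPM, it was no more concentrated than the median gene of its plate. Pou5f1 in ES replicate 2, at 26.7 CPM, was outside that set, and its 2 wells lay below the median of 3. In ES replicate 2 the deepest well held 25.9% of the plate's gene reads and 60 of the 265 Sox2 reads, but 1 of 40 Nanog reads and 1 of 7 Pou5f1 reads.

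Reads of the 3 factors occurred together in the same wells more often than their single shares alone give. All 3 were read in 34 of 93 wells of ES replicate 1 (36.6%, exact 95% interval 26.8 to 47.2%), 2 of 66 of replicate 2 (3.03%) and 41 of 94 of replicate 3 (43.6%, 33.4 to 54.2%). The product of the single shares gives 19.6, 1.35 and 26.5 wells. None of the 3 was read in 14, 12 and 10 wells, against 5.06, 9.03 and 3.48 from the product. Sox2 was read in 40 of the 43 Pou5f1 wells of ES replicate 1, 4 of 5 of replicate 2 and 47 of 54 of replicate 3. Nanog was read in 34 of those 43 wells, in 2 of 5 and in 45 of 54. Pou5f1 with Nanog but no Sox2 was found in 0, 0 and 4 wells. The number of wells with both members of a pair, divided by the product, averaged 1.23 ± 0.07 for Pou5f1 and Nanog, 1.16 ± 0.12 for Pou5f1 and Sox2 and 1.16 ± 0.04 for Sox2 and Nanog (SD, n = 3 plates). All 9 of these ratios lay above 1, the lowest being 1.04 for Pou5f1 and Sox2 in ES replicate 2. The ratio was not computed for pairs of other genes. An excess over the product is therefore not shown to be particular to the factors.

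**Figure D4:**
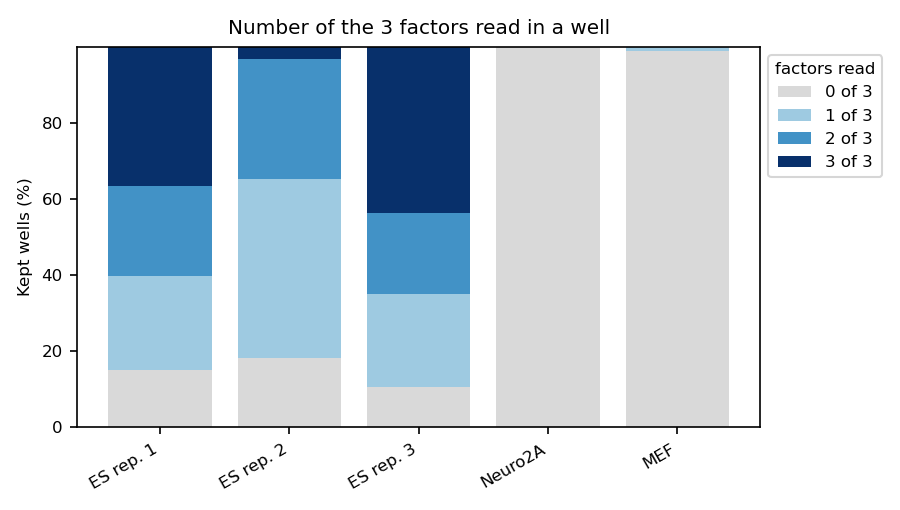
Percent of kept wells in which 0, 1, 2 or 3 of Pou5f1, Sox2 and Nanog had a read, as stacked bars by plate. Wells with all 3 make up 36.6%, 3.03% and 43.6% of ES replicates 1, 2 and 3, and every Neuro2A well and all but 1 MEF well have none.

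Depth moved with the number of factors read. In ES replicate 1 the wells with all 3 had a median of 119604 gene reads on 3256 genes, and those with none 28707 reads on 679 genes. In ES replicate 3 the medians were 29138 reads on 3482 genes with all 3, and 10214.5 reads on 1195.5 genes with none. The ranges overlapped, since wells with none reached 154958 reads in replicate 1 and 23349 in replicate 3. At 1000 reads per well the mean ratio of co-detection was 1.01 ± 0.21 for Pou5f1 and Sox2 (SD, n = 3 plates). It was 0.848 ± 0.437 for Pou5f1 and Nanog and 1.04 ± 0.08 for Sox2 and Nanog. For each pair 1 lay within 1 SD of the mean. In ES replicates 1, 2 and 3 the ratio was 1.15, 0.772 and 1.10 for Pou5f1 and Sox2. It was 1.09, 0.344 and 1.11 for Pou5f1 and Nanog, and 1.13, 1.03 and 0.964 for Sox2 and Nanog. The replicate 2 ratios with Pou5f1 rest on its 7 Pou5f1 reads. With all reads but without the wells whose barcode ended in G, the ratio averaged 1.15 ± 0.16 for Pou5f1 and Sox2, 1.31 ± 0.07 for Pou5f1 and Nanog and 1.15 ± 0.05 for Sox2 and Nanog (SD, n = 3 plates). The G wells of ES replicate 3 cannot show an excess for Sox2, which was read in all 24. Cells of a plate are not replicates, so no test was made, and the part of capture between wells in the excess was not tested.

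Levels of the factors in single wells were only weakly related. In reads thinned to 1000 per well, Spearman's rho between Sox2 and Nanog was 0.14, 0.04 and -0.02 over the wells of ES replicates 1, 2 and 3 (93, 66 and 94 wells that share library and depth). Its mean of 0.05 ranked 290 among 766 genes by their rho with Sox2, whose median was 0.03. Pou5f1 had a mean rho of -0.003 with Sox2 and 0.006 with Nanog, beside a median of 0.007 over 767 genes. Neither of the other factors was thus among the genes closest to a factor, and in counts this sparse no rho of this size is a finding. The genes with the highest mean rho were Ywhah, Phb2 and Nasp for Pou5f1 (0.25, 0.23 and 0.20), EG664868, Nol5 and Prdx1 for Sox2 (0.24, 0.23 and 0.20), and Dnajc8, 1810035L17Rik and Bsg for Nanog (0.25, 0.23 and 0.21). Pou5f1 itself was read in under 10% of thinned wells of ES replicates 1 and 2.

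Over the 5 plates, the genes with the most similar profile were named for each factor. Likeness was the root mean square difference in log2(CPM + 1) over the 5 plates among 15596 genes, so it reads level as well as pattern. Nearest to Sox2 was Tdgf1, a Nodal co-receptor, at 0.31, with 781, 1147 and 514 CPM in the ES plates, none in Neuro2A and the same 0.682 CPM as Sox2 in MEF. Dnmt3l, a cofactor of DNA methylation, and Sall4, a zinc-finger partner of Oct4, followed at 0.64 and 0.69. Nearest to Nanog were L1td1, an RNA-binding protein of pluripotent cells, at 0.49, LOC666367 at 0.66 and Esrrb, an orphan nuclear receptor, at 0.73. Nearest to Pou5f1 were Sept1, a septin, at 0.44, Gpx2, a glutathione peroxidase, at 0.44 and Eras, an ES-cell Ras protein, at 0.50. Nanog ranked 14 by likeness to Sox2, at 1.28, while Pou5f1 lay 1.84 from Nanog and 2.89 from Sox2.

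Transcription factors that act with the 3 were mostly read in ES as well. Of 24 listed, every ES plate lay above MEF for 19 and above Neuro2A for 16, against 31.5% and 30.9% of all genes tested. In ES replicates 1, 2 and 3 Esrrb had 308, 171 and 298 CPM, whereas Neuro2A had no read of it and MEF 1 read. The ES plates of Esrrb all lay above both other types, as for 19.7% of all genes tested. Klf5, a Krüppel-like factor, had 72.7, 11.4 and 1185 CPM in the ES plates, against 30.4 for Neuro2A and 23.9 for MEF. Its value in ES replicate 2 equals the 3-read limit of that plate, so whether it lies below the other types is uncertain. The other ES plates lay above both. Zfx, a zinc-finger factor of self-renewal, was lower, with 183, 152 and 178 CPM in ES against 603 in Neuro2A and 313 in MEF. Stat3, the effector of LIF signalling, had 293, 640 and 333 CPM in ES, 640 in Neuro2A and 683 in MEF. By edgeR at an unadjusted p under 0.05, 13 of 23 tested were higher in ES against MEF and 13 against Neuro2A. Over all genes tested 4.21% and 8.38% were higher. Of the list 1 was lower each time, and 0 passed when adjusted over all genes. Of the 24, 11 had 0 reads in MEF and 13 in Neuro2A, so these could not come out lower in ES. This list too was chosen with earlier results of these data known. The median log2 ratio of ES to MEF, with genes at 0 set to 3 reads, was 5.10 beside 0.79 over all genes tested, and 5.23 beside 1.21 against Neuro2A.

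Genes reported as targets of the 3 factors were also mostly read in ES. Of 24, every ES plate lay above MEF for 21 and above Neuro2A for 22, against 31.5% and 30.9% of all genes tested. The median log2 ratios were 6.67 and 6.77 on the same limits, beside 0.79 and 1.21 over all genes tested. Fgf4, a growth factor whose enhancer carries a composite Oct4 and Sox2 site, had 240, 175 and 154 CPM in the ES plates and 0 reads in both others. Utf1, a chromatin-bound factor, had 93.5, 110 and 238 CPM in ES and 0 reads in both others, and Fbxo15, an F-box protein, 219, 145 and 94.2 CPM in ES and 0 reads in both others. Every ES plate lay above both other types for these 3 genes, as for 19.7% of all genes tested. Lefty1, a Nodal inhibitor, was uneven, with 54.1, 0 and 18.3 CPM in ES and 0 reads elsewhere. The 0 in ES replicate 2 allows up to 11.4 CPM. Spp1, osteopontin, was not particular to ES against MEF, with 1603, 1493 and 438 CPM in ES, 0 in Neuro2A and 1126 in MEF. By edgeR at an unadjusted p under 0.05, 20 of 23 tested were higher against MEF and 16 against Neuro2A, and 0 were lower. Of the 24, 13 had 0 reads in MEF and 15 in Neuro2A, so these could not come out lower in ES. The list was also chosen with earlier results of these data known, so these counts are no independent support. Over all genes tested 4.21% and 8.38% were higher. None of the list passed when adjusted over all genes.

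Receptors and signals upstream of the factors lay on both sides of the other cell types. Of 16 listed, every ES plate lay below MEF for 9 and above for 2, and below Neuro2A for 6 and above for 5. Over all genes tested every ES plate lay below MEF for 28.5% and below Neuro2A for 25.6%, and above them for the 31.5% and 30.9% given before. Lifr, the LIF receptor, was read in ES replicate 2 alone among the ES plates (7.62 CPM), against 0 in Neuro2A and 1.02 CPM in MEF, and its co-receptor Il6st 34.8, 38.1 and 43.6 CPM in ES, 0.317 in Neuro2A and 48.8 in MEF. Socs3, a feedback inhibitor that LIF induces, had 112, 137 and 102 CPM in ES, 6.97 in Neuro2A and 44.0 in MEF. Id3, a target of BMP signalling, had 1.49, 7.62 and 143 CPM in ES, 256 in Neuro2A and 816 in MEF. The median log2 ratio of the list was -0.83 against MEF, beside 0.79 over all genes tested, and -0.15 against Neuro2A, beside 1.21.

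Other members of the Sox and POU families differed widely in ES. Of 18 Sox genes listed beside Sox2, 9 had reads in any plate. Sox4 and Sox11, both SoxC factors, had 1.22, 26.7 and 33.7 CPM and 0.175, 60.9 and 23.9 CPM in ES, against 164 and 194 CPM in Neuro2A and 232 and 147 CPM in MEF. Sox9, a SoxE factor, had 0, 38.1 and 32.3 CPM in ES, 148 in Neuro2A and 84.3 in MEF. Every ES plate was below both other types for these 3, as for 11.4% of all genes tested, and Sox4 alone had an unadjusted p under 0.05 in edgeR against MEF (0.0275, adjusted p = 0.549). Sox12, another SoxC factor, had 99.4, 76.2 and 25.3 CPM in ES, 136 in Neuro2A and 29.3 in MEF. Sox13, a SoxD factor, had 37.8, 7.62 and 1.87 CPM in ES and 0 reads elsewhere. Sox1 and Sox3, the closest relatives of Sox2, had no read in any plate. Among 14 POU genes beside Pou5f1, 9 had reads, and Pou2f1, the widely expressed Oct1, had 83.6, 168 and 197 CPM in ES, 24.7 in Neuro2A and 0 in MEF. Pou4f2, a factor of sensory neurons, had 0, 0 and 8.90 CPM in ES, 100 in Neuro2A and 4.44 in MEF.

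Of the markers of other cell types, more were at 0 in ES replicate 1 than in replicates 2 and 3. The same held over all 15597 genes, of which 9572, 12005 and 12128 had reads in ES replicates 1, 2 and 3. The order of the plates in these counts is therefore not particular to the markers. Of 8 neural progenitor markers, which bear on Sox2, 8, 7 and 6 were at 0 in ES replicates 1, 2 and 3, where their sum was 0, 60.9 and 155 CPM, against 81.5 CPM in Neuro2A and 621 CPM in MEF. Pax6, Sox1, Fabp7, Olig2, Pou3f2 and Hes5 were at 0 in all plates, while Nes, an intermediate filament gene of neural progenitors, had 0, 60.9 and 145 CPM in ES, 37.4 in Neuro2A and 564 in MEF. Of 8 primitive endoderm markers 7, 6 and 4 were at 0 in the ES plates, with a sum of 55.8 to 107 CPM against 25.7 in Neuro2A and 416 in MEF. Of 18 early lineage genes 17, 14 and 11 were at 0 in the ES plates, with sums of 1.31, 137 and 179 CPM against 139 in Neuro2A and 627 in MEF. Of 12 fibroblast markers 10, 4 and 0 were at 0, with sums of 1771, 1684 and 3290 CPM in the ES plates against 1493 in Neuro2A and 19958 in MEF. Of 12 neuroblastoma markers 10, 8 and 4 were at 0, with sums of 0.612, 72.4 and 109 CPM in the ES plates against 1802 in Neuro2A and 159 in MEF. No carried-over reads were taken out of these sums and counts. Genes specific to MEF had in ES replicate 3 a median of 10.8% of their number of reads in MEF. Those specific to Neuro2A had in MEF a median of 9.45% of their number in Neuro2A. The part of such reads in the marker sums was not tested. The part of these markers in the levels of the factors was not tested.

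For 2 of the factors, reads may be shared with gene copies. RefSeq lists 7 pseudogenes of Pou5f1 and 2 of Nanog, none with reads under its own name here, and counts cannot show how reads that match a gene and its copies were placed, so the Pou5f1 and Nanog levels are uncertain in that respect. In the GENCODE annotation of GRCm38, Sox2 lies inside the long non-coding gene Sox2ot on the same strand, and Pou5f1 overlaps the antisense gene Gm19553. Whether the counting used strand is not given in the sources used here.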

How the data were processed

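Single-cell tagged reverse transcription marks each well's cDNA with its own 5-base barcode, after which the wells of a plate are pooled for PCR, per the labels' protocols. The files hold raw read counts per feature and barcode, as stated in the deposited readme. The submitters' processing notes list Bowtie, a read aligner. No build, annotation or version was found in these sources. No molecular identifiers are named.

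Of 116 barcode columns per file, 96 had reads. Rows named as repeats (8654 names) or mitochondrial (37) were left out, which leaves 15597 genes. Reads of wells with at least 1000 gene reads (431 wells, against 436 cells in the design text) were summed per plate and fitted with edgeR 4.0.16 (glmQLFit, glmQLFTest, TMM, filterByExpr, Benjamini-Hochberg at 0.05), as group means of ES, Neuro2A and MEF. The 3 comparisons share the ES plates. CPM values are reads per 1000000 gene reads, without TMM. The median gene of ES against MEF lay at -0.08 with TMM and at 0.67 with library size alone, on the log2 scale. P-values measure only the spread between plates, which may be technical. Alternatives were DESeq2 1.42.0, limma-voom 3.58.1, other scalings, filters and sets of wells, each ES plate left out, and subtraction of reads carried over from MEF to ES replicate 3 and from Neuro2A to MEF, which used genes of at least 100 CPM in the source and at least 10 times the level in plates other than the source and the target. Shares of wells have exact binomial intervals, and a share of 0 also the limit of 3 wells. R was version 4.3.3. Tables, intervals and plots came from pandas 2.3.3 and numpy 2.4.6, scipy 1.17.1 and matplotlib 3.10.9 under python 3.11.15.

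The members and gene lists were chosen with earlier results of these data known. The genes named are the members, genes of the lists, the 3 nearest to each member over the plates, and the 3 with the highest mean rho over ES wells among genes read in at least 10% of thinned wells of each ES plate.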

Additional observations from a re-analysis of the deposited data

Results flagged for a closer look

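Reads of the factors were also found in wells that no comparison used. The 30 wells of ES replicate 2 with under 1000 gene reads, which held 14551 gene reads together, had 4 Pou5f1 reads and 8 Sox2 reads, above the limit of 3 reads that a count of 0 allows. The 10 such wells of Neuro2A (5194 gene reads) and the 4 of MEF (2049 gene reads) had 0 reads of both genes. With all wells kept, the mean levels in ES moved by less than the SD between plates.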

How the results depend on the processing

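Each factor was higher in ES in all 117 refits (13 alternatives of 9 results), of which 31 passed an adjusted p of 0.05. The direction was fixed by the 0 to 2 reads of each factor in the other plates. Against MEF, DESeq2 gave 0.00695, 2.49e-09 and 5.46e-05 for Pou5f1, Sox2 and Nanog, and leaving out each ES plate in turn gave edgeR ranges of 0.00614 to 0.834, 0.000101 to 0.827 and 0.000108 to 0.749. Against Neuro2A, DESeq2 gave 0.00234, 4.66e-07 and 1.44e-05, the ranges without 1 ES plate were 0.00147 to 0.546, 2.39e-06 to 0.412 and 1.16e-05 to 0.426, and no low-count filter gave 0.0208 for Sox2 and 0.0306 for Nanog. Against both types, DESeq2 gave 1.58e-05, 3.55e-15 and 2.38e-10, the ranges were 8.31e-06 to 0.376, 5.84e-11 to 0.293 and 6.11e-10 to 0.293, and no filter gave 0.0222, 0.00154 and 0.00328. There Sox2 was also called with DESeq2 size factors (0.0386), library size alone (0.0188), wells of at least 5000 gene reads (0.0295), no G barcodes (0.0419), no deepest well of ES replicate 2 (0.0241) and carried-over reads subtracted (0.0420), and Nanog with library size alone (0.0273) and without that well (0.0378). The lowest value of each range was that without ES replicate 1.

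Where edgeR called 0 genes, DESeq2 called 416 higher and 90 lower against MEF, 1084 and 163 against Neuro2A and 961 and 176 against both. Without 1 ES plate edgeR called 0 to 213 higher and 0 to 432 lower against MEF, 0 to 1016 and 0 to 422 against Neuro2A and 0 to 887 and 0 to 337 against both. With no filter it called 9 higher against MEF, 76 higher and 6 lower against Neuro2A, and 186 and 7 against both. Limma-voom called 1 higher and 491 lower against MEF. Against both, the calls higher were 23 with DESeq2 size factors, 113 with library size alone, 30 in wells of at least 5000 reads, 14 without G barcodes, 35 without the deepest well and 40 with carried-over reads subtracted, which also called 3 lower. The cause was not tested.

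The mean share of ES wells with a read was 7.17% for Pou5f1, 41.7% for Sox2 and 23.1% for Nanog at 1000 reads per well. For Sox2 it was 55.9% at 2000 reads, 64.1% with at least 2 reads, 83.6% in wells of at least 5000 reads and 67.6% without G barcodes, and for Nanog 34.7% at 2000 reads. Co-detection of Pou5f1 and Sox2 was 1.01 at 1000 reads. That of Pou5f1 and Nanog was 0.848 at 1000 reads, 0.906 at 2000 reads and 0.908 with at least 2 reads. These means lay below 1 through ES replicate 2, which had 7 Pou5f1 reads. In ES replicates 1, 2 and 3 the ratio was 1.09, 0.344 and 1.11 at 1000 reads. It was 1.17, 0.383 and 1.17 at 2000 reads, and 1.39, 0 and 1.33 with at least 2 reads. The mean for this pair was 1.14 in wells of at least 5000 reads and 1.31 without G barcodes. That of Sox2 and Nanog was 1.04, 1.11 and 1.09 at 1000 reads, at 2000 reads and in wells of at least 5000 reads.

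No paired analysis was possible because the labels give the plates no shared numbers and Neuro2A and MEF have 1 plate each. A plate effect cannot be told apart from the cell type. The 7 Pou5f1 reads of ES replicate 2 limit its level and its pairs there.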
